A study of Rattus norvegicus with 21 samples.

Results

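Neurons of the spinal cord were followed through 5 genes: the neurofilament subunits Nefl (ENSRNOG00000013658), Nefm (ENSRNOG00000013916) and Nefh (ENSRNOG00000008716), the synaptic gene Snap25 (ENSRNOG00000006037) and the dendritic gene Map2 (ENSRNOG00000011841). They were chosen by name as neuronal markers and are 5 of the 32883 rat gene IDs counted. All 5 were measured in every library and passed the low-count filter in both tissues. The animals were LEW/Crl rats, wild type and 6 to 8 weeks old, given neomycin (NEO), vancomycin (VANCO) or PBS, the buffer control, into the trachea over 7 days. Spinal cords were freed of myelin on a Percoll gradient. Sorting for CD45low CD11b+ cells yielded 12 microglia libraries, 4 each for NEO, VANCO and PBS, numbered 1, 2, 3 and 5. The unsorted pellet gave 9 total cord libraries, 3 each for NEO, VANCO and PBS, with numbers 1, 2 and 3. Nothing in the labels tells if a library stems from 1 rat or several, and each p-value therefore reflects only the variation among these libraries, which may be technical.

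Neurofilaments are the intermediate filaments of axons and are most abundant in large projection neurons such as motor neurons. Nefl encodes the light subunit that forms the filament core, and Nefm and Nefh encode the medium and heavy subunits, whose long phosphorylated tails project from it. Snap25 encodes a membrane protein of the presynaptic terminal that drives vesicle fusion, and Map2 encodes a microtubule-binding protein of neuronal cell bodies and dendrites. Microglia are the resident macrophages of the cord and are not known as a source of these transcripts, and their level after the sort is given below as the percent of the cord level that remained. In bulk samples such as these, fewer neurons and less neuronal RNA per cell cannot be told apart. Total cord levels are those of the pellet after the Percoll gradient, and how much neuronal material each pellet retained was not examined here.

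Microglia libraries held 9020480 to 22435887 counts, and total cord libraries 16769410 to 25114844. Levels are given as CPM, each count scaled to the library total, which compare a gene between libraries but not genes of different length with each other. NEO replicate 2 of the microglia stood apart from the other 11 microglia libraries in all 5 genes. Fold changes that rest on it are given with and without it. Microglia are otherwise named here only by their label, since marker genes of other cell types were not matched to IDs and were not used here.

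In total cord the 5 genes were abundant after every treatment, and none passed the test in any comparison. Counts lay between 7075 and 23943 per gene and library. Nefl had 1098, 1259 and 933 CPM in NEO replicates 1, 2 and 3, 944, 1111 and 928 CPM in VANCO, and 874, 1161 and 864 CPM in PBS. The means were 1097 ± 163 CPM in NEO, 994 ± 101 CPM in VANCO and 966 ± 169 CPM in PBS (SD, n = 3 each). Replicate 2 was the highest for Nefl in each treatment, and the 3 groups overlapped.

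Nefm, the medium subunit, had 620, 759 and 594 CPM in NEO replicates 1, 2 and 3, 565, 697 and 605 CPM in VANCO, and 510, 716 and 560 CPM in PBS. Nefh, the heavy subunit, had 685, 783 and 648 CPM in NEO, 731, 777 and 702 CPM in VANCO, and 702, 754 and 670 CPM in PBS. For both subunits replicate 2 was again the highest of each treatment and the groups overlapped. The NEO mean of Nefl was 1.14 times the PBS mean and that of Nefm 1.10 times, while for Nefh the ratio was 0.995.

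Snap25 had 469, 573 and 475 CPM in NEO replicates 1, 2 and 3, 438, 550 and 487 CPM in VANCO, and 397, 584 and 423 CPM in PBS. Its highest value in each treatment was also replicate 2. Map2 departed from that order in NEO, with 999, 917 and 826 CPM in NEO replicates 1, 2 and 3, 859, 909 and 856 CPM in VANCO, and 882, 962 and 795 CPM in PBS. The groups overlapped for both genes. The spread of Map2 and Nefh between replicates was the smallest, with a coefficient of variation of 9.50 and 9.91% in NEO, 3.41 and 5.09% in VANCO, and 9.47 and 6.02% in PBS. For Snap25 it was 11.6% in NEO, 11.4% in VANCO and 21.7% in PBS.

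**Figure D1:**
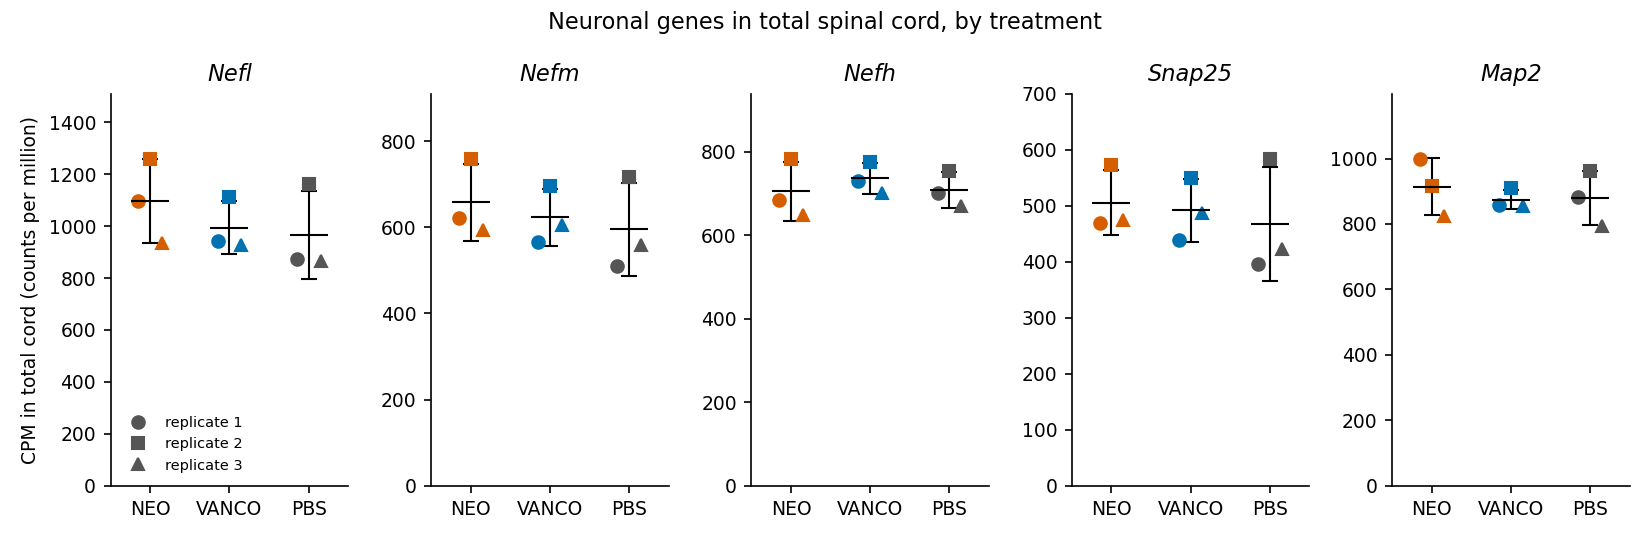
CPM (vertical axis, from 0) of each gene in the 9 total cord libraries, grouped by treatment, with 1 point per library, the marker shape giving the replicate number, and bars for the mean ± SD of 3 libraries. Replicate 2 (squares) is the highest in each treatment for Nefl, Nefm, Nefh and Snap25, and the treatments overlap for all 5 genes.

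The first question was whether neuronal transcripts of the cord differed after neomycin and after PBS. Of the 5 genes 0 passed, against 0% of the 14677 genes tested with edgeR's quasi-likelihood test at an adjusted p of 0.05. At an unadjusted p under 0.05 there were 400 genes in all and none of the 5. Without PBS replicate 2, unadjusted p was 0.0118 for Nefl (log2 fold change 0.35), 0.0382 for Nefm (0.31) and 0.0311 for Snap25 (0.32) in the edgeR fit, each with an adjusted p of 0.730. Without NEO replicate 2 the fold changes of Nefl, Nefm and Snap25 were 0.077, 0.035 and 0.022, and without PBS replicate 1 they were 0.098, 0.028 and -0.0070. With all libraries the log2 fold change was 0.19 (SE 0.14) for Nefl, 0.15 (SE 0.15) for Nefm, 0.12 (SE 0.16) for Snap25, 0.06 (SE 0.08) for Map2 and 0.0039 (SE 0.086) for Nefh. The 95% intervals ran from -0.11 to 0.49 for Nefl, from -0.17 to 0.48 for Nefm, from -0.18 to 0.19 for Nefh, from -0.24 to 0.48 for Snap25 and from -0.11 to 0.24 for Map2. Across all genes tested the median log2 fold change was -0.0034.

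Libraries with the same replicate number deviated together, so the same model was also fitted with the number as a block. The block left the fold changes in place and narrowed the intervals, and 0.681% of the 14677 genes then passed (76 higher after NEO, 24 lower). None of the 5 genes did. Nefl came closest, with a log2 fold change of 0.20 (SE 0.05) and an edgeR adjusted p of 0.0762, and it was higher after NEO in 3 of 3 pairs. Nefm had 0.16 (SE 0.05, adjusted p = 0.208), also with 3 of 3 pairs higher, and Snap25 had 0.14 (SE 0.05, adjusted p = 0.360) with 2 of 3. Nefh, with 0.0015 (SE 0.048), was higher in 1 of 3 pairs.

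The number left out decided this call. Without the libraries numbered 2, the blocked model called Nefl (log2 fold change 0.24, adjusted p = 0.00108), Nefm (0.21, adjusted p = 0.00488) and Snap25 (0.23, adjusted p = 0.00143) higher after NEO, where 2.71% of 14682 genes passed in either direction and 1.39% were higher. That fit rests on 2 libraries a group and was chosen after the data were seen. Without the libraries numbered 1 or 3, none of the 5 passed, against 0.532% and 0.4% of genes, and Nefl had an adjusted p of 0.743 and 0.384.

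Vancomycin was compared with PBS in the same way. Again 0 of the 5 genes passed, against 0% of 14677 genes without the block and 0.00681% with it, and 124 genes had an unadjusted p under 0.05 without the block. Log2 fold changes were 0.05 (SE 0.14) for Nefl, 0.07 (SE 0.15) for Nefm, 0.06 (SE 0.09) for Nefh, 0.08 (SE 0.16) for Snap25 and -0.0011 (SE 0.080) for Map2. Intervals (95%) ran from -0.25 to 0.35 for Nefl, from -0.26 to 0.40 for Nefm, from -0.13 to 0.25 for Nefh, from -0.28 to 0.44 for Snap25 and from -0.18 to 0.17 for Map2. Nefh was higher after VANCO in 3 of 3 pairs and Map2 in 1 of 3. The blocked model without the libraries numbered 2 also gave positive log2 fold changes here for Nefl (0.12, edgeR adjusted p = 0.694), Nefm (0.14, adjusted p = 0.442) and Snap25 (0.18, unadjusted p = 9.0e-05, adjusted p = 0.0970). In that fit none of the 5 neuronal genes passed, against 5 of the 14682 genes tested. The NEO and VANCO comparisons share the PBS libraries.

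The direct comparison of NEO with VANCO in total cord also called 0 of the 5, against 0% of 14677 genes without the block and 0.436% with it. Without the block 331 genes had an unadjusted p under 0.05. Nefl had a log2 fold change of 0.14 (SE 0.14) without the block and 0.14 (SE 0.05, edgeR adjusted p = 0.370) with it, and was higher after NEO in 3 of 3 pairs. Nefh had the opposite sign, -0.06 (SE 0.09), and was higher after NEO in 1 of 3 pairs.

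**Figure D2:**
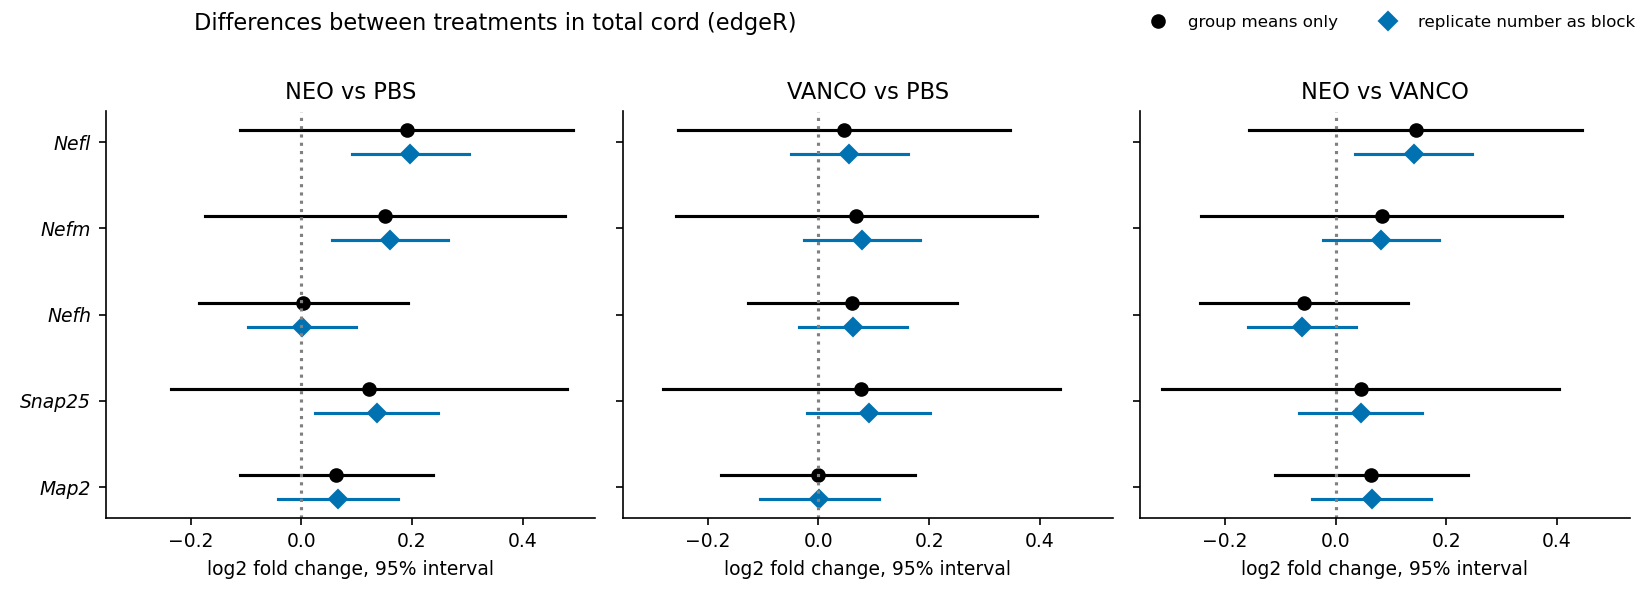
Log2 fold changes (horizontal axis) with 95% intervals for the 5 genes in the 3 total cord comparisons, from edgeR with group means only (black circles) and with the replicate number as a block (blue diamonds). Every black interval includes 0, and with the block those of Nefl, Nefm and Snap25 in NEO against PBS and of Nefl in NEO against VANCO do not, while no adjusted p is under 0.05.

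Ratios between the 5 genes within a library do not depend on how libraries are scaled. In total cord they were narrow. Neurofilament counts made up 62.1 to 65.3% of the counts of the 5 genes in NEO, 62.5 to 63.9% in VANCO and 62.0 to 63.2% in PBS. For each Nefl count there were 0.601 ± 0.036, 0.626 ± 0.027 and 0.616 ± 0.032 counts of Nefm in NEO, VANCO and PBS (SD, n = 3 each). The corresponding Nefh ratio was 0.647 ± 0.041 in NEO, 0.744 ± 0.039 in VANCO and 0.743 ± 0.082 in PBS, and NEO overlapped PBS but not VANCO, with a highest value of 0.694 in NEO against a lowest of 0.699 in VANCO. Within same-number pairs it was lower in NEO than in PBS in 3 of 3, with 0.624 against 0.804, 0.622 against 0.650 and 0.694 against 0.775. The pattern was not particular to Nefh, since the Nefm and Map2 ratios to Nefl were also lower in NEO than in PBS in every pair. These ratios all divide by Nefl, which was itself higher in NEO in 3 of 3 pairs, so they are not separate observations. The Snap25 ratio to Nefl was lower in the pairs numbered 1 and 2 and higher in that numbered 3 (0.509 against 0.489). These ratios were not tested, and each group had 3 libraries.

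Across the 9 cord libraries Nefm and Snap25 varied most alike. Their log2 CPM had r = 0.978, so that Nefm was the gene ranked 2 of 14676 in likeness to Snap25, and Snap25 the gene ranked 3 in likeness to Nefm. Nefl and Nefm had r = 0.934, whereas Nefl and Nefh had r = 0.730. Map2 had r from 0.485 to 0.760 with the other genes and was the least like Nefm, Nefh and Snap25, while for Nefl that was Nefh. These correlations are descriptions over 9 libraries that share treatments and replicate numbers.

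After the sort the 5 genes fell to a small fraction of their cord level. Microglia were compared with total cord within each treatment in a model of all 21 libraries, where all 5 genes were lower in microglia in NEO, VANCO and PBS. In the same tests 39.8, 39.2 and 39.1% of 15546 genes were lower. In PBS the log2 fold change of microglia over cord was -6.05 (SE 1.44) for Nefl, -5.54 (SE 1.38) for Nefm, -5.98 (SE 1.41) for Nefh, -6.35 (SE 1.29) for Snap25 and -8.71 (SE 1.71) for Map2, with edgeR adjusted p from 0.000163 to 0.00131. In VANCO it was -8.92, -8.36, -9.47, -6.91 and -9.01 in the same order of genes. In NEO it was -5.65, -5.38, -5.89, -4.79 and -5.11, and without NEO replicate 2 it was -10.36, -9.76, -10.56, -8.37 and -10.64. The median of all genes depended on the scaling, at 0.21 in PBS with TMM factors and 0.50 lower with RLE factors, which turned the split of calls from 6991 higher and 6074 lower to 5143 and 7367. All 5 genes stayed lower under RLE, as under the other scalings tried.

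The level left in each microglia library is given as a percent of the mean CPM of the 3 cord libraries of the same treatment. NEO replicate 2 had the highest level of every gene: 1045 counts of Nefl (8.78% of cord), 756 of Nefm (10.6%), 578 of Nefh (7.55%), 845 of Snap25 (15.4%) and 1283 of Map2 (12.9%). NEO replicates 1, 3 and 5 held 9, 23 and 35 counts of Nefl, which is 0.0425, 0.104 and 0.149% of cord. Their Map2 counts were 3, 20 and 23, or 0.0170, 0.109 and 0.118%. The NEO group thus held 1 library at 7.55% of cord or more and 3 libraries under 1% for all 5 genes.

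In VANCO microglia the neurofilament genes and Map2 were under 1% of cord in all 4 libraries. Nefl had 9, 89, 13 and 29 counts in VANCO replicates 1, 2, 3 and 5, or 0.0603, 0.584, 0.0625 and 0.198% of cord. Nefm had 0.0321, 0.807, 0.115 and 0.382%, and Nefh 0.0271, 0.461, 0.0389 and 0.0923%. Snap25 stood above the neurofilaments in each of these 4 libraries, at 0.108, 2.07, 0.350 and 1.12%, and Map2 had 0.0609, 0.545, 0.0710 and 0.171%. Replicate 2 was the highest of the group for all 5 genes. With counts of 3 to 9, as for all 5 genes in VANCO replicate 1, the exact Poisson interval is wide: 3 counts of Nefh there allow 0.00559 to 0.0792% of cord, which covers counting error only.

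PBS microglia differed in which neuronal genes they held. Nefl had 234, 222, 277 and 51 counts in PBS replicates 1, 2, 3 and 5, or 2.16, 2.55, 1.64 and 0.235% of cord. Nefm had 3.19, 3.59, 2.29 and 0.299%, and Nefh 2.47, 2.77, 1.501 and 0.182%. Replicates 1, 2 and 3 thus lay well above replicate 5 in each neurofilament gene. Snap25, by contrast, had 0.955, 2.77, 0.844 and 0.810%, and Map2 0.152, 0.643, 0.176 and 0.111%, so for these genes replicates 1 and 3 lay near replicate 5. In PBS replicate 1 the 95% Poisson interval was 1.89 to 2.46% for Nefl and 0.0852 to 0.251% for Map2.

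**Figure D3:**
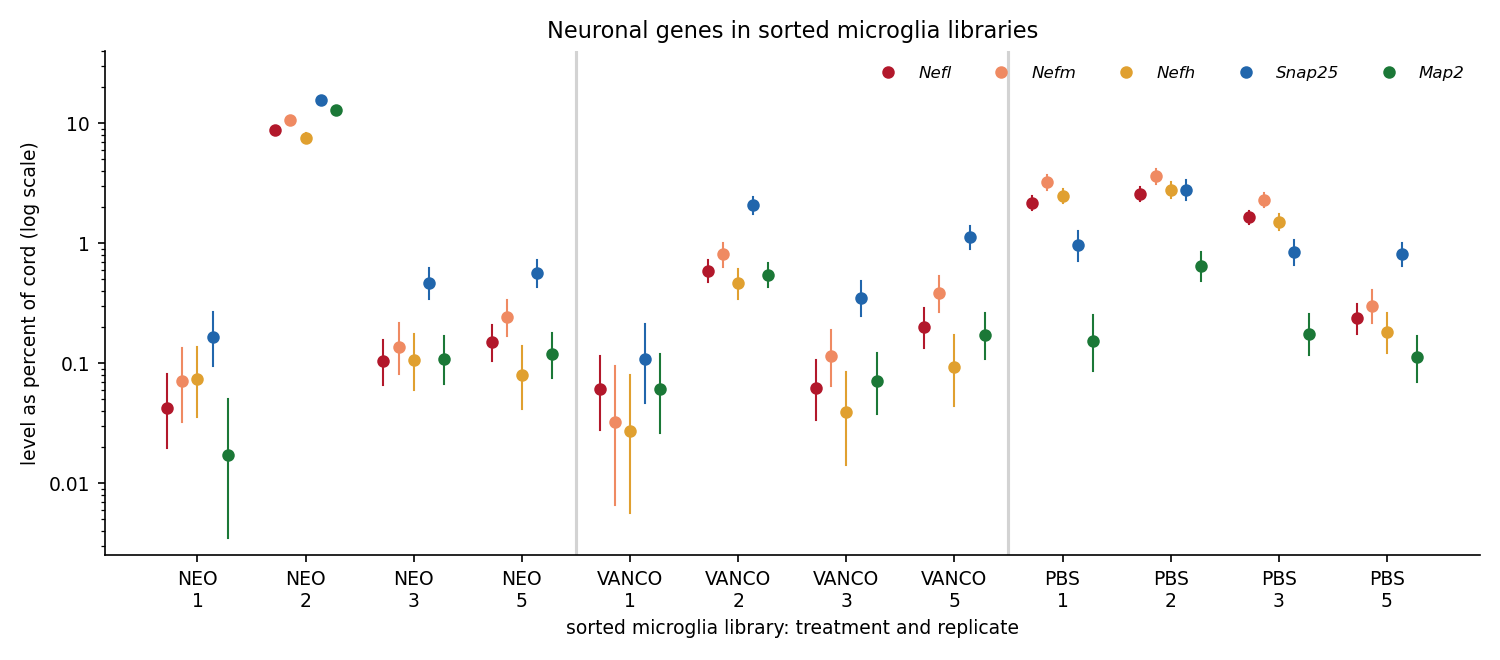
Level of each gene in the 12 sorted microglia libraries as a percent of the mean cord level of the same treatment (log scale), with 95% exact Poisson intervals for counting error. NEO replicate 2 holds all 5 genes at 7.55 to 15.4%, while PBS replicates 1, 2 and 3 hold the 3 neurofilament genes at 1.501 to 3.59% and Map2 at 0.152 to 0.643%.

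The ratio of Nefl to Map2 counts within a library put the same pattern on a scale free of library size. It was 3, 0.815, 1.15 and 1.52 in NEO microglia replicates 1, 2, 3 and 5, 1.13, 1.22, 1.00 and 1.32 in VANCO, and 15.6, 4.35, 10.3 and 2.32 in PBS. In total cord it stayed between 0.991 and 1.37 in all 9 libraries. NEO replicate 1 had only 9 and 3 counts behind it. PBS replicates 1, 2 and 3 were the highest of the 12 microglia libraries and also exceeded every cord library.

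Set against Snap25, Nefl divided the microglia libraries differently. In cord there were 1.91 to 2.34 Nefl counts for each Snap25 count. NEO microglia replicates 1, 2, 3 and 5 had 0.563, 1.24, 0.489 and 0.574, VANCO had 1.13, 0.571, 0.361 and 0.358, and PBS had 4.68, 1.90, 4.01 and 0.600. Thus 2 libraries, PBS replicates 1 and 3, lay above the cord range, and the other 10 had values below it. Among those 10, PBS replicate 2 (1.897) lay at the edge of the cord range, whose lowest value was 1.906. VANCO replicate 1 had only 9 counts of Nefl and 8 of Snap25. No intervals were computed for these ratios, so counting error may place such libraries within the cord range. The neurofilament share of the counts of the 5 genes was 90.8% in PBS replicate 1 (95% Wilson interval 88.5 to 92.7%), 77.9% in replicate 2 (74.8 to 80.7%), 88.0% in replicate 3 (85.5 to 90.0%) and 52.9% in replicate 5 (46.4 to 59.3%). It was 52.8% in NEO replicate 2 (51.3 to 54.2%), and 41.0 to 48.8% in VANCO, against 62.0 to 65.3% over the 9 cord libraries.

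**Figure D4:**
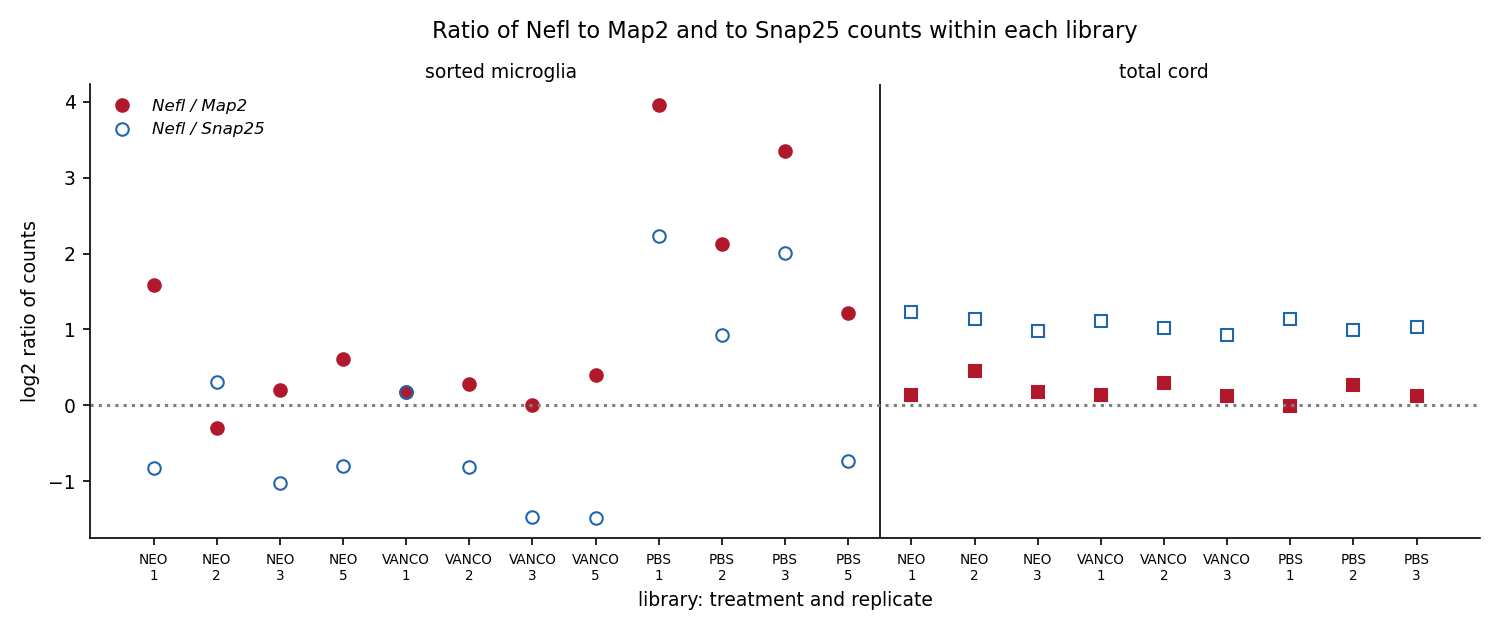
Log2 ratio of counts (vertical axis) of Nefl to Map2 (filled red) and of Nefl to Snap25 (open blue) in each library, with sorted microglia as circles on the left and total cord as squares on the right. Cord libraries form 2 tight bands, and PBS microglia replicates 1, 2 and 3 have the highest Nefl to Map2 ratios of all libraries, from 4.35 to 15.6 on the linear scale.

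Other genes of the cord gave a background for these levels. There were 513 further genes at least 64-fold lower in microglia than in cord in VANCO, with a mean of at least 50 CPM in cord, and all 5 genes met the same criteria. Their median level was 7.97% of cord in NEO replicate 2 and 0.0997, 0.386 and 0.363% in NEO replicates 1, 3 and 5. In PBS replicates 1, 2, 3 and 5 it was 0.482, 1.43, 0.532 and 0.381%. VANCO libraries chose these genes and had medians of 0.123, 1.16, 0.219 and 0.366%.

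Against this background the neurofilaments stood high in PBS replicates 1, 2 and 3 and below the median gene in the other PBS library and in NEO replicates 1, 3 and 5. In NEO replicates 1, 3 and 5 Nefl exceeded 23.8, 13.1 and 13.6% of the 513 genes, Nefm 37.2, 16.2 and 32.7%, and Nefh 38.2, 13.1 and 5.65%. In PBS replicate 5 Nefl exceeded 31.0%, Nefm 42.3% and Nefh 22.4%. In PBS replicates 1, 2 and 3 Nefl exceeded 91.6, 78.4 and 87.5% of them, Nefm 94.0, 89.9 and 94.3%, and Nefh 92.6, 80.9 and 86.2%. Map2 in the same 3 libraries exceeded 18.5, 18.3 and 9.75%. In NEO replicate 2 Map2 was above 87.3% and Snap25 above 94.9% of the genes. Nefl was above 58.3% there, Nefm above 74.7% and Nefh above 44.25%. Snap25 also ranked above the 3 neurofilament genes in NEO replicates 1, 3 and 5, in PBS replicate 5 and in every VANCO library.

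**Figure D5:**
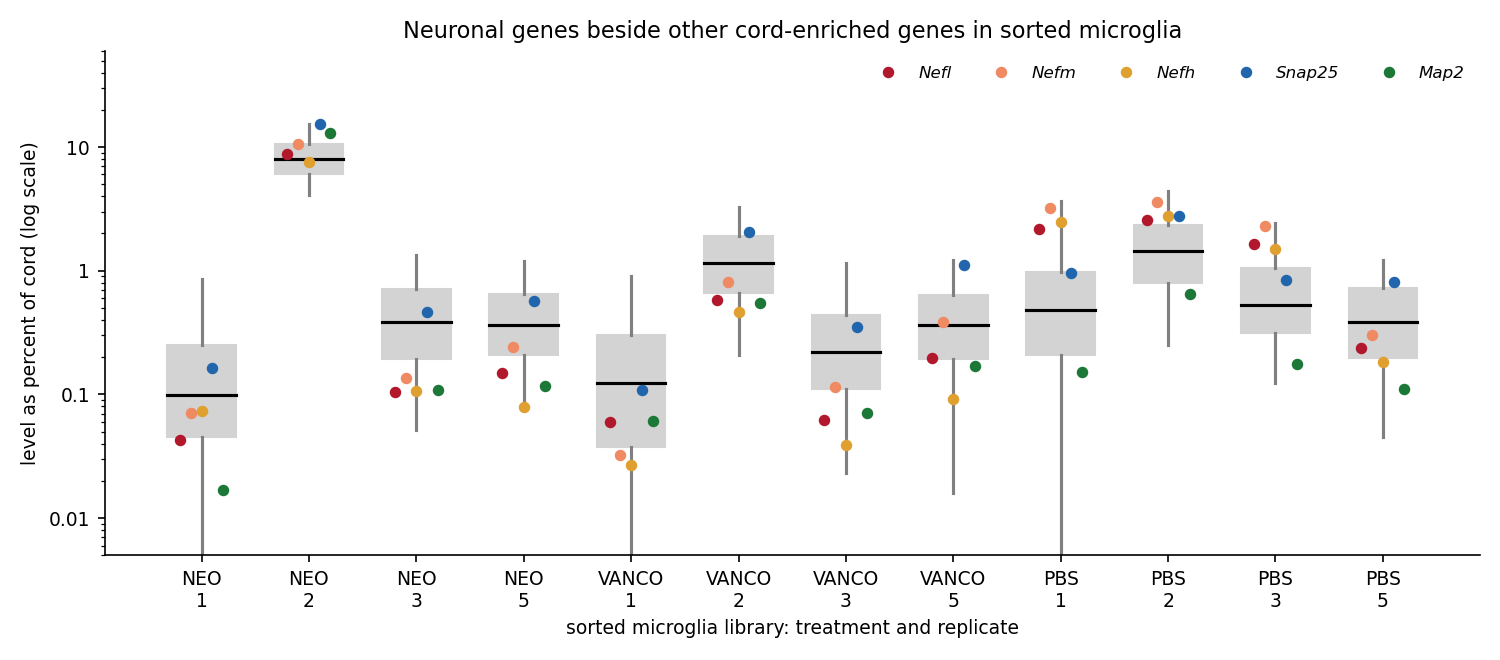
Level of the 5 genes (points) in each microglia library as a percent of cord (log scale), over the spread of 513 other cord-enriched genes (box, 25th to 75th percentile; line, median; whiskers, 5th to 95th percentile, cut at the lower edge where they reach 0). The neurofilament points lie above the box in PBS replicates 1, 2 and 3 and below the median in NEO replicates 1, 3 and 5 and in PBS replicate 5.

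The neurofilament genes were not alone in this. Of the 513 genes 38 (7.41%) were at least as high, as a percent of cord, as the lowest neurofilament gene in each of PBS replicates 1, 2 and 3. These 38 were picked on those values. In PBS replicate 5 their median was 0.217% of cord, against 4.31, 5.29 and 2.64% in PBS replicates 1, 2 and 3. In NEO replicate 2 it was 6.39%, where the median of all 513 genes was 7.97%. In the other NEO libraries and in VANCO it lay between 0.161 and 1.16%. The low VANCO levels were set by the choice of the 513 genes, which had to be low in VANCO microglia. ENSRNOG00000017206 had the highest mean level of the 38 in PBS replicates 1, 2 and 3. It had 697, 555 and 630 counts there (24.5, 24.2 and 14.2% of cord) and 2 counts in PBS replicate 5. The files give no symbol for it. In cord it had 382, 230 and 106 CPM in NEO replicates 1, 2 and 3, 288, 299 and 75.1 CPM in VANCO, and 314, 350 and 98.2 CPM in PBS, so replicate 3 was the lowest of each treatment. The part of cell types other than neurons in these levels was not tested.

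Between treatments, the libraries of sorted microglia varied widely and gave no call for the 5 genes. For NEO against PBS 0 of the 5 genes passed, against 0.0398% of 12570 genes with edgeR, and with the replicate block 0 passed against 0.748%. The log2 fold change was 0.68 (SE 1.49) for Nefl, 0.41 (SE 1.47) for Nefm, 0.19 (SE 1.504) for Nefh, 1.77 (SE 1.37) for Snap25 and 3.75 (SE 1.80) for Map2. Without NEO replicate 2 the sign turned for all 5, to -3.89 for Nefl (adjusted p = 0.446), -3.84 for Nefm (0.510), -4.34 for Nefh (0.446), -1.67 for Snap25 (0.999) and -1.68 for Map2 (0.999). With the block the sign also turned for Nefl (-1.36), Nefm (-1.44) and Nefh (-1.75), but not for Snap25 (0.27) or Map2 (1.68). Nefl, Nefm, Nefh and Snap25 were higher after NEO in 1 of 4 pairs each and Map2 in 2 of 4.

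VANCO against PBS gave no call. Nefl averaged 0.226 ± 0.247% of cord in VANCO microglia and 1.65 ± 1.01% in PBS microglia (SD, n = 4 each). Without VANCO replicate 2 the VANCO mean was 0.107%. Its log2 fold change was -2.82 (SE 1.64), with -2.75 (SE 1.61) for Nefm and -3.43 (SE 1.72) for Nefh, and edgeR adjusted p was 1.00 for each. Here 0 of 12570 genes passed, with 108 at an unadjusted p under 0.05. With the block Nefl had -3.59 (SE 1.25, unadjusted p = 0.0190 in the edgeR fit, adjusted p = 1.00) and Nefm -3.32 (SE 1.27, unadjusted p = 0.0283, adjusted p = 1.00). Nefh had -4.41 (SE 1.19, unadjusted p = 0.00490, adjusted p = 0.977), and 0% of genes passed. Snap25 (-0.48, SE 1.37) and Map2 (-0.31, SE 1.78) had smaller differences. The groups overlapped for all 5 genes, since PBS replicate 5 lay below VANCO replicate 2. Within same-number pairs Nefl and Nefh were higher after VANCO in 0 of 4, and Nefm, Snap25 and Map2 in 1 of 4 each.

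NEO against VANCO in microglia rested on NEO replicate 2. The log2 fold changes were 3.50 for Nefl, 3.16 for Nefm, 3.62 for Nefh, 2.25 for Snap25 and 4.06 for Map2, with 0 of the 5 past the threshold, against 0% of genes without the block and 0.167% with it. Without that library they were -1.07, -1.09, -0.91, -1.18 and -1.34, and again none passed, against 0 of 12804 genes in all. Nefl and Map2 were higher after NEO in 2 of 4 pairs and Nefm, Nefh and Snap25 in 3 of 4.

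Across the 12 microglia libraries the neurofilament genes followed one another. Nefl and Nefm had r = 0.989 in log2 CPM, and Nefm was ranked 2 of 12569 genes in likeness to Nefl and Nefh 4. Snap25 was ranked 154 and Map2 232. Snap25 and Map2 had r = 0.951 with each other. These values were computed after the pattern had been seen. They include NEO replicate 2, which had the highest level of every gene, and were not computed without it.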

How the data were processed

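Total RNA libraries of sorted microglia and of total cord were used. Raw counts per Ensembl gene ID were deposited by the authors, 1 file per library. The submitters' processing notes name STAR 2.5.2a and bcl2fastq 2.20.0.422, with rn6 as the build and featureCounts 1.5.0-p1. The sources used here do not give the annotation release, strand setting or treatment of multi-mapping reads. In RefSeq's GRCr8 annotation 1 gene overlaps Nefm and 2 overlap Snap25, and reads of such genes may not be told apart. The gene table gave no Ensembl IDs, so none of the 32883 IDs could be matched to it (0 matched). The 5 names come from the rule that chose the genes, and the wider neuronal list and cell type markers were not run.

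The 5 genes and the comparisons were chosen with earlier results of these data known. The tests on counts used edgeR 4.0.16 under R 4.3.3 (filterByExpr with a minimum count of 10, TMM factors, robust quasi-likelihood F test, Benjamini-Hochberg over all genes tested, threshold 0.05), 1 model per tissue and 1 of all 21 libraries. The 5 genes were always to be named, and others only where a symbol was known; ENSRNOG00000017206 was named after its values were seen. CPM use plain library totals. Intervals are 95%. Poisson and Wilson intervals cover counting error only. Intervals and SE of fold changes were derived from the fold change and F statistic of the edgeR fit, which is approximate. They reflect variation among libraries.

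Same-number libraries of different treatments had correlated deviations (r from 0.359 to 0.588 in cord, 0.244 to 0.794 in microglia, all above 0.1). Between unlike numbers r spanned -0.485 to 0.00909 in cord and -0.553 to 0.343 in microglia, so the microglia ranges overlap. The numbers were therefore taken to pair the libraries, and the replicate block was fitted beside the unpaired model. The pairing comes from the data, since no label explains the number. No libraries were duplicates (chi-square per degree of freedom 8.35 to 221 over 27 within-group pairs). The scripts were tested on simulated data. Alternatives were DESeq2 1.42.0, limma 3.58.1 with voom, other factors, other filters and left-out libraries.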

Additional observations from a re-analysis of the deposited data

Results flagged for a closer look

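In groups of 4 microglia libraries, 21 combinations of group and measure were examined for a library far from the others by the ratio of gap to range, and 9 had one. Chance gives about 1 in 20 for a single combination of normally distributed values. The CPM were taken without logs, so that rate need not hold here, and the combinations reuse the same libraries. NEO replicate 2 had 96.3 CPM of Nefl against 0.466 to 1.64 in the other NEO libraries, 69.7 CPM of Nefm against 0.466 to 1.59, 53.3 CPM of Nefh against 0.518 to 0.748, 77.9 CPM of Snap25 against 0.829 to 2.86 and 118.3 CPM of Map2 against 0.155 to 1.08. The 5 genes summed to 415.5 CPM in that library and to 2.44 to 7.73 CPM in the others. PBS replicate 2 had 12.97 CPM of Snap25 against 3.79 to 4.47 in the other PBS libraries, and 5.65 CPM of Map2 against 0.981 to 1.54. VANCO replicate 2 had 3.39 CPM of Nefh against 0.200 to 0.680 in the other VANCO libraries. All 9 belong to libraries numbered 2. The 3 neurofilament genes in PBS gave no such library, since replicates 1, 2 and 3 were high together.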

How the results depend on the processing

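The lower level of the 5 genes in microglia than in cord kept its direction and call in every alternative that gave an adjusted p. DESeq2 gave none for Snap25 and Map2 in microglia, nor for Nefl, Nefh and Map2 in the model of all libraries. Treatment differences were less stable, and the cause was not tested. The fits that left libraries out of the blocked model were chosen after seeing the data. Counts of 3 to 20 limit the lowest microglia libraries.

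Counts of genes called for cord NEO against PBS (0 in the unpaired model) were 26 with DESeq2, 15 with no filter and 100 with the replicate block, and 78, 398 and 59 with the block without number 1, 2 or 3. For cord VANCO against PBS (0) they were 1 with the block and 3, 5 and 4 without number 1, 2 or 3. For cord NEO against VANCO (0) they were 1 with upper quartile factors, 25 with DESeq2, 13 with no filter, 64 with the block and 42, 129 and 52 without number 1, 2 or 3, and 0 to 1 when 1 library was left out of the unpaired model. For microglia NEO against PBS (5) they were 2 with RLE factors, 12 with upper quartile factors, 66 with DESeq2, 9 with no filter, 94 with the block, 300 with the block without NEO replicate 2 and 0 with the compared groups only, and 0 to 15 when 1 library was left out. For microglia VANCO against PBS (0) DESeq2 gave 5. For microglia NEO against VANCO (0) DESeq2 gave 16, the block 21 and the block without NEO replicate 2 gave 75.

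Some log2 fold changes turned sign. In cord, Nefh in NEO against PBS was -0.020 with the block without number 2. Map2 in VANCO against PBS (-0.0011) was 0.0027 with RLE factors, 0.0026 with DESeq2, 0.0015 with voom, 3.3e-05 with no filter, 0.0013 with the block, and 0.020 and 0.046 with the block without number 1 or 2. Map2 in NEO against VANCO was -0.0076 with the block without number 1. In microglia NEO against PBS, voom gave -2.21 for Nefl, -2.14 for Nefm, -2.35 for Nefh, -0.49 for Snap25 and -0.17 for Map2. The replicate block gave -1.36 for Nefl, -1.44 for Nefm and -1.75 for Nefh, and without NEO replicate 2 it gave -3.15 for Nefl, -3.15 for Nefm, -3.53 for Nefh, -0.98 for Snap25 and -0.72 for Map2. In microglia NEO against VANCO the block without NEO replicate 2 gave -0.23 for Nefl, -0.36 for Nefm, -0.31 for Snap25 and -0.27 for Map2.

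With 1 library left out, cord VANCO against PBS ran from -0.046 to 0.072 for Map2, from -0.047 to 0.20 for Nefl, from -0.055 to 0.23 for Nefm and from -0.052 to 0.27 for Snap25. Cord NEO against PBS ran from 0.077 to 0.35 for Nefl, from 0.028 to 0.31 for Nefm, from -0.080 to 0.058 for Nefh and from -0.0070 to 0.32 for Snap25, and cord NEO against VANCO from -0.034 to 0.17 for Nefm and from -0.055 to 0.13 for Snap25. Microglia NEO against PBS ran from -3.89 to 1.08 for Nefl, from -3.84 to 0.81 for Nefm, from -4.34 to 0.60 for Nefh, from -1.67 to 2.43 for Snap25 and from -1.68 to 4.62 for Map2. Microglia NEO against VANCO ran from -1.07 to 4.64 for Nefl, from -1.09 to 4.13 for Nefm, from -0.91 to 5.21 for Nefh, from -1.18 to 3.105 for Snap25 and from -1.34 to 5.18 for Map2. Microglia VANCO against PBS ran from -1.43 to 0.58 for Map2 and from -1.34 to 0.19 for Snap25.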
